A study of Rattus norvegicus with 47 samples.

Results

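The silica response of lung and of whole blood was compared gene by gene 1 day after the end of exposure, in 24 of the 47 libraries of a rat study. The rats were healthy male Fischer 344, an inbred strain with no altered gene, and the labels give no age. Air animals, numbered 37 to 42, breathed filtered air; silica animals, numbered 43 to 48, breathed crystalline silica (Min-U-Sil 5) at a concentration of 15 mg/m3, in 5 daily sessions of 6 h. Both tissues carry the same 12 animal numbers, taken here as the same animals though the labels do not say so. Each of the 4 groups held 6 libraries, and the lung and blood contrasts rest on different libraries. Genes were kept as members when their mean was at least 5 CPM (counts of a gene scaled to a common library size) over the 12 libraries of lung and also over the 12 of blood. That gave 8454 of the 30045 genes listed, of which 8451 were tested in every fit. Of all genes, 12261 reached the level in lung and 8941 in blood. Just inside the limit were Cdt1 at 5.003 CPM, in its lower tissue, and Pcca at 5.005 CPM, and just outside it Qsox1 at 4.997 CPM and Cystm1 at 4.996 CPM.

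Inhaled crystalline silica is taken up by alveolar macrophages. Particles that damage the phagosome set off the NLRP3 inflammasome, which matures interleukin-1, and neutrophils released from the bone marrow into blood then enter the lung. Whole blood RNA comes from circulating neutrophils, lymphocytes, monocytes, platelets and young red cells. Lung RNA comes from epithelium, endothelium, stroma, resident macrophages and whatever blood cells stay in the vessels. In bulk tissue, more cells of a type and more RNA per cell cannot be told apart.

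Total counts ranged from 12050267 to 25875985 per lung library and from 11972916 to 18253537 per blood library. The epithelial genes Sftpc, Slc34a2, Scgb1a1 and Scgb3a2 were at 0 in all 12 bloods, where 3 counts per library is the floor, and Sftpc was at 8493 to 10510 CPM in the lungs. Others on that list were found in blood, such as Napsa at 149.2 to 222.6 CPM and Hopx at 130.4 to 183.8 CPM. The 15 epithelial genes summed to 311.8 to 393.1 CPM in the air bloods and 343.3 to 431.1 CPM in the silica bloods. In the lungs they summed to 31750 to 38030 CPM. The 10 fibroblast and smooth muscle genes summed to at most 1.757 CPM in a blood library and to at least 2115 CPM in a lung library. The 20 T cell genes found summed to 2069 to 2569 CPM in blood and 261.6 to 362.3 CPM in lung. In the air lungs the 22 globin, heme and red cell membrane genes found summed to 3973 to 5253 CPM, and in the silica lungs to 3024 to 3963 CPM. These genes are carried by red cells, and their part in any lung result was not tested. The labels do not make clear whether globin depletion covered lung RNA as well as blood RNA.

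Silica changed many more genes in lung than in blood. Of the 8451 members, 764 rose and 429 fell in lung at an adjusted p below 0.05 (edgeR's quasi-likelihood test, Benjamini-Hochberg over all genes tested). In blood 122 rose and 14 fell. The members' shares were 9.04% up and 5.08% down in lung, and 1.61% in blood in either direction. Over every gene tested they were 8.39% up and 5.72% down in lung (14.1% in all), and 1.19% up and 0.180% down in blood. Effects in blood were small, since 130 of the 136 changed members moved by less than 1.5-fold. The spread was wider in blood, with a median SE of 0.0745 over members against 0.052 in lung, on the log2 scale. The blood count moved when single libraries were left out. It fell to 78, 77, 75 and 77 without the blood of air animal 37, 38, 41 or 42, and to 69, 77 and 72 without that of silica animal 45, 46 or 48. It was 117, 136 and 99 without the blood of animal 39, 44 or 47, and rose to 148 and 180 without that of air animal 40 or silica animal 43.

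The 2 effects were then compared directly, as the silica effect in blood minus the silica effect in lung, in 1 fit over the 24 libraries. This difference passed the threshold for 475 members (5.62%), against 4.03% of all genes tested. It was higher in blood for 278 (3.29%) and lower in blood for 197 (2.33%), against 1.98% and 2.05% of all genes tested. The balance of directions turned with the scaling and with single blood libraries. With normalization factors set within each tissue, 161 were higher and 289 lower. Upper-quartile factors gave 168 and 273, and the difference of the separate tissue fits gave 295 and 555. With the animal number as a replicate block, 180 were higher and 146 lower. Lower differences outnumbered higher ones without any 1 of 11 of the 12 blood libraries, all but air animal 39, with 168 to 231 higher and 200 to 263 lower. Without both libraries of an animal 55.2% to 60.8% were higher. Without both libraries of animal 48 the count was 305. Of the 475, 138 passed in neither tissue alone.

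Members were sorted by these 3 tests. Genes past the threshold in both tissues numbered 51, which is 4.27% of the lung calls and 37.5% of the blood calls. Of them 42 had the same sign and 9 opposite signs. A further 239 changed in lung only, meaning that blood did not pass, the difference did, and the blood effect was the nearer to 0. By the mirror rule 54 changed in blood only. For 877 of the 1142 members past the threshold in lung and not in blood, the difference itself did not pass, so these were not shown to differ between the tissues. The same held for 31 of the 85 past it in blood alone. In 26 of the 1142 the difference passed but the blood effect was not the nearer to 0, so they are in no class.

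**Figure D1:**
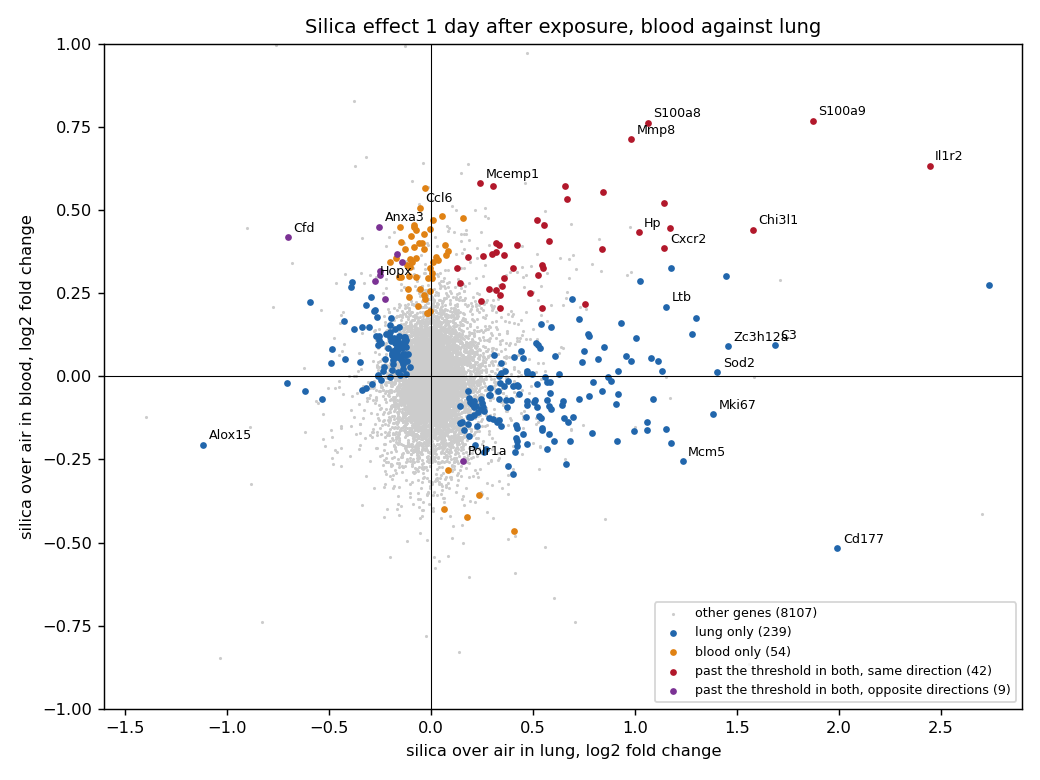
Silica effect in lung (x axis) against that in blood (y axis), both as log2 fold change of silica over air 1 day after exposure, 1 point a gene; 10 of 8451 genes lie outside the axes. The 42 genes past the threshold in both tissues with the same sign all sit at the upper right, and the lung-only genes spread along the x axis.

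All 42 members that responded alike rose in both tissues. Neutrophil genes led them: S100a8 and S100a9, Mmp8, Il1r2 and Cxcr2 rose in lung and in blood, together with Hp, Il1b, Il1rn and Nlrp3. None fell in both by edgeR's quasi-likelihood test. At an unadjusted p below 0.05, 51 fell in both and 182 rose in both, and DESeq2 called 3 shared falls among 85 shared genes. Of the 42, 34 were at a higher level in blood than in lung, with a median log2 ratio of blood to lung of 1.68. Over all members, 21% were higher in blood and the median was -0.92. The silica and air groups did not overlap in lung for 22 of the 42 and in blood for 33, against 7.60% and 2.35% of all members. The rule used these contrasts, so the shares are a description. The count was 27 or 25 without the blood of air animal 41 or 42, and 23 or 25 without that of silica animal 45 or 48. It rose to 58 without the blood of silica animal 43.

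S100a8 and S100a9 encode the subunits of calprotectin, the main cytosolic protein of neutrophils. In blood, S100a9 was at 1136 to 1451 CPM under air (median 1290) and at 1888 to 2419 CPM under silica (median 2212). In lung it was at 53.2 to 113 CPM under air (median 70.7) and at 163 to 404 CPM under silica (median 288). In both tissues every silica library lay above every air library. The log2 fold change was 1.87 ± 0.24 (SE, n = 6 and 6, adjusted p = 0.000133) in lung and 0.77 ± 0.07 (adjusted p = 0.0003) in blood. The effect in blood minus that in lung was -1.06 ± 0.26 (adjusted p = 0.02). It did not pass without both libraries of animal 37, 44 or 47 (S100a9, adjusted p up to 0.0597). S100a8 was at 478 to 588 CPM in the air bloods and at 803 to 971 CPM in the silica bloods, again without overlap. Its lung values, 18.3 to 45.1 CPM under air (median 29) and 38 to 98 CPM under silica (median 60.8), overlapped. It rose by 1.06 ± 0.24 in lung and 0.76 ± 0.07 in blood, and the difference between tissues, -0.26 ± 0.26, did not pass (adjusted p = 0.678).

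Mmp8, neutrophil collagenase, was at 89.9 to 122 CPM in the air bloods (median 93.3) and at 142 to 190 CPM in the silica bloods (median 157). In lung it went from 3.7 to 9.4 CPM under air (median 6.07) to 9.05 to 16.4 CPM under silica (median 12.1). The blood groups were apart and the lung groups met at their edges. Its log2 fold change was 0.98 ± 0.21 in lung and 0.71 ± 0.09 in blood (adjusted p = 0.00525 and 0.00208). Cxcr2 encodes the receptor for neutrophil-attracting chemokines. In lung it was at 7.39 to 16.6 CPM under air (median 12.8) and at 18.7 to 37.4 CPM under silica (median 27.9), and in blood at 142 to 206 CPM (median 178) and at 221 to 247 CPM (median 232). Its groups did not overlap in either tissue. The rises were 1.14 ± 0.21 and 0.39 ± 0.08 (adjusted p = 0.00205 and 0.0249), and the tissue difference of -0.70 ± 0.23 did not pass (adjusted p = 0.082).

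Il1r2, the decoy receptor that binds interleukin-1 without signalling, had the largest lung rise of the 42. It was at 1.56 to 4.33 CPM in the air lungs (median 2.96) and at 10.1 to 21.9 CPM in the silica lungs (median 17.7). Its blood values were 31.7 to 52.5 CPM under air (median 35.5) and 49.7 to 69 CPM under silica (median 60.3). The lung groups were far apart and the blood groups overlapped. It rose 5.44-fold in lung and 1.55-fold in blood, and the log2 difference between tissues was -1.73 ± 0.28 (adjusted p = 0.000536). Il1b, the cytokine itself, was at 18.2 to 33.1 CPM in the air lungs (median 23.1) and at 37.4 to 72.9 CPM in the silica lungs (median 51). Its blood values were 227 to 281 CPM under air (median 268) and 302 to 457 CPM under silica (median 343). Neither tissue showed an overlap, and Il1b rose by 1.17 ± 0.18 in lung and 0.45 ± 0.09 in blood (adjusted p = 0.000545 and 0.0249).

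Il1rn, the antagonist that blocks the interleukin-1 receptor, and Nlrp3, the inflammasome sensor, moved by nearly equal steps. Il1rn was at 30.9 to 41.6 CPM (median 37) and 48.6 to 59.9 CPM (median 52.8) in the air and silica lungs, and at 102 to 115 CPM (median 107) and 118 to 154 CPM (median 137) in the bloods. Nlrp3 was at 16.2 to 19.3 CPM (median 17.1) and 23.6 to 29.6 CPM (median 25.4) in the lungs, and at 56.6 to 69.8 CPM (median 64.2) and 73 to 87.4 CPM (median 78.7) in the bloods. Silica and air libraries were apart for both genes in both tissues. Both rose by 0.55 ± 0.07 in lung and by 0.33 ± 0.06 (Il1rn) or 0.33 ± 0.07 (Nlrp3) in blood. Of the 11 members on the list of IL-1 family and inflammasome genes, 8 rose in lung and 4 in blood, and the 4 blood rises were Il1r2, Il1b, Il1rn and Nlrp3. The signs were positive for 8 in lung and 9 in blood.

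Chi3l1, a chitinase-like protein of macrophages and neutrophils, was at 122 to 173 CPM in the air lungs (median 152) and at 353 to 520 CPM in the silica lungs (median 461). Blood values were 352 to 418 CPM under air (median 384) and 477 to 572 CPM under silica (median 523). With no overlap in either tissue it rose 2.99-fold in lung and 1.36-fold in blood (adjusted p = 4.18e-07 and 0.00225), a log2 difference of -1.09 ± 0.12 (adjusted p = 4.62e-06). Hp, haptoglobin, which binds free hemoglobin, was at nearly the same level in both tissues under air, 40.5 to 49.7 CPM in lung and 43.6 to 49.8 CPM in blood. Under silica it was at 75.1 to 101 CPM in lung and at 51.5 to 71 CPM in blood, so the lungs moved further. Its tissue difference was -0.54 ± 0.11 (adjusted p = 0.00402). Slc16a3, the lactate exporter of glycolytic cells, rose by 0.84 ± 0.09 in lung and 0.38 ± 0.05 in blood. That difference of -0.40 ± 0.10 passed (adjusted p = 0.0228) but not with the animal number as a replicate block (Slc16a3, adjusted p = 0.0739).

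Lrg1, a leucine-rich glycoprotein of neutrophil granules, Dgat2, the last enzyme of triglyceride synthesis, and Amica1, a junctional adhesion molecule of leukocytes, rose by amounts close to each other in the tissues. Lrg1 was at 33.1 to 54 CPM and 50 to 76.8 CPM in the air and silica lungs and at 294 to 396 CPM and 467 to 507 CPM in the bloods. Dgat2 was at 36.1 to 42.7 CPM and 54.4 to 65.9 CPM in the lungs and at 30.5 to 50.7 CPM and 56.4 to 67 CPM in the bloods. Of these values only the lung values of Lrg1 overlapped. The differences between tissues were -0.05 ± 0.15 for Lrg1, -0.04 ± 0.12 for Dgat2 and -0.01 ± 0.12 for Amica1, and none passed. Mcemp1, a mast cell expressed membrane protein, went the other way. It rose by 0.24 ± 0.06 in lung, where the groups overlapped, and by 0.58 ± 0.07 in blood, from 68.7 to 95.1 CPM under air to 109 to 138 CPM under silica. Its difference of 0.38 ± 0.10 passed (adjusted p = 0.024), and not with the replicate block (Mcemp1, adjusted p = 0.0985). In all, the difference passed for 9 of the 42, with 7 larger in lung and 2 larger in blood. Besides those above these were Niacr1, Tf and Il13ra1, named after their values were seen, with lung and blood log2 changes of 1.14 and 0.52, 0.75 and 0.22, and 0.13 and 0.33. For the other 33 the difference did not pass, which does not show equal effects.

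**Figure D2:**
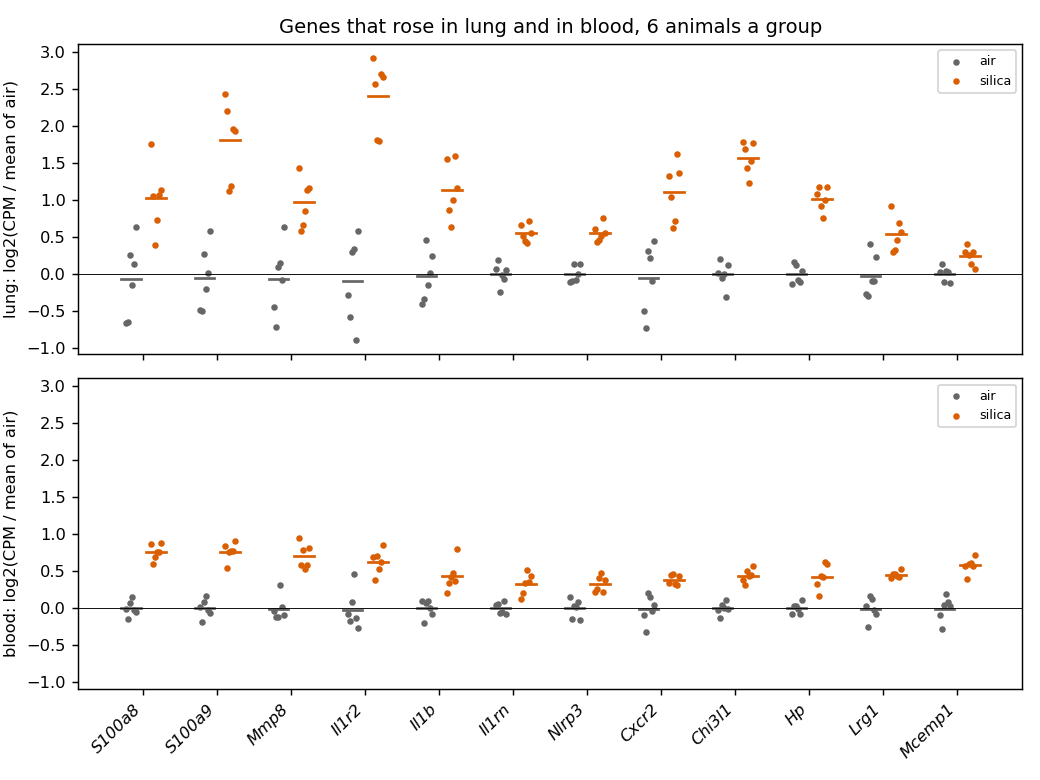
Each point is 1 library, as log2 of its CPM over the mean of the 6 air libraries of the tissue (lung above, blood below), and bars are group means. In blood the silica points of S100a8, S100a9 and Mmp8 stand clear of air with little scatter, and the lung points scatter more and reach higher for Il1r2 and S100a9.

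Neutrophil genes as a list mostly moved the same way, with exceptions. Of 28 neutrophil genes, 16 reached the level in both tissues; 12 of these rose and 1 fell in lung, and 8 rose in blood, where 14 of the 16 had a positive sign. The median member changed by 0.81 in lung and 0.30 in blood on the log2 scale, against 0.00 and -0.01 over all members. The summed level of the 28 genes was 633 to 740.1 CPM in the air lungs and 1166 to 1646 CPM in the silica lungs. In the bloods it was 3372 to 3864 CPM under air and 4785 to 5734 CPM under silica. The sums of silica and air libraries did not overlap in either tissue. The blood sum includes S100a9, at 1136 to 1451 CPM under air and 1888 to 2419 CPM under silica, and S100a8, at 477.8 to 587.5 CPM and 802.9 to 971.3 CPM. The lung sum includes Cd177, at 95.94 to 202 CPM under air and 409.4 to 605.4 CPM under silica, which did not rise in blood. It also includes Lcn2, at 3.408 to 6.679 CPM and 29.09 to 57.74 CPM in lung and at most 0.1942 CPM in blood. Cxcr1, at 0 in every blood, went the other way in lung, from 15.51 to 31.97 CPM to 6.98 to 14.66 CPM. Ngp and Cybb ranged lower under silica in blood, with overlap. Ngp was at 12.67 to 25.39 CPM under air and 5.521 to 17.44 CPM under silica there, and Cybb at 58.27 to 95.39 CPM and 41.91 to 70.11 CPM. Csf3r, the receptor for the neutrophil growth factor G-CSF, rose in lung by 0.98 ± 0.21 (adjusted p = 0.00549). Its blood change of 0.31 ± 0.08 did not pass (adjusted p = 0.0678), although its values there, 215 to 298 CPM under air and 307 to 367 CPM under silica, did not overlap.

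The promoters of a shared riser of each kind, calprotectin and interleukin-1, are shown with matches to TTGNNNAA in capitals, a core form of the site bound by C/EBP factors of myeloid cells. They are RefSeq sequences of GRCr8, 250 bases before to 50 bases from the start of the gene, on the gene's strand, and both strands were searched. S100a9 lies at chr2:178490573-178490872 on the minus strand, with 1 match whose first base is at -173. Il1b lies at chr3:137036532-137036831 on the minus strand, with matches at -119 and 34.
S100a9: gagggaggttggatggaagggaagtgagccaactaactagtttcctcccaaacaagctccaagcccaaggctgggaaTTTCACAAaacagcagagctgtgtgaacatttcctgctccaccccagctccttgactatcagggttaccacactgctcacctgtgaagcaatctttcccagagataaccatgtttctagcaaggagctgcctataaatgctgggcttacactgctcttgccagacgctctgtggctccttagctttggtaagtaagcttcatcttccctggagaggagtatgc
Il1b: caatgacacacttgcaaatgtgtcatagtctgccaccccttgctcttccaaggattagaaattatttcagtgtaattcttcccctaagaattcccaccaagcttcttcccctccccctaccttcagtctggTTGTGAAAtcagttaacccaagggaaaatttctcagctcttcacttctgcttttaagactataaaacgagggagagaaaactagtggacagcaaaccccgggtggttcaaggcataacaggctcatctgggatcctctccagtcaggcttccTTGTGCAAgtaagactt

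A promoter with a unique symbol was found for 25 of the 42 shared risers, and 13 of them (52.0%) held the letters TTGNNNAA. The share was 26.4% of the 5944 members with a promoter and 37.2% of all 33469 RefSeq promoters. GGGANNNNCC, a core form of the site bound by NF-kB, stood in 4 of the 25 (16.0%), against 25.5% of members. These letters occur often, and a match is a description of the sequence only.

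Only 9 members passed the threshold in both tissues with opposite signs. In 8 of them lung fell and blood rose: Ctsf, Anxa3, Tcn2, Cfd, Arrdc3, Hopx, Surf1 and Antxr2. In Polr1a lung rose and blood fell. All changes were below 2-fold, and the difference between tissues passed for all 9. At an unadjusted p below 0.05 in both tissues, 164 members had opposite signs, and DESeq2 called 22. A looser rule asked for a difference past the threshold, 1 tissue past it, and an unadjusted p below 0.05 in the other. By it 73 members had opposite signs, 43 lower in lung and higher in blood and 30 the reverse. Of all members past the threshold in blood, 122 rose and 14 fell. The count of 9 fell to 3, 3 or 5 without the blood of air animal 37, 41 or 42, and to 3, 4, 4 or 3 without that of silica animal 45, 46, 47 or 48.

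Cfd, complement factor D, which starts the alternative pathway by cleaving factor B, had the widest divergence. In lung it was at 11.3 to 16.6 CPM under air (median 14.2) and at 7.68 to 9.84 CPM under silica (median 8.7). Blood values of Cfd were 10.1 to 15 CPM under air (median 12.8) and 15.9 to 19.1 CPM under silica (median 17.3). Groups were apart in both tissues, on opposite sides. The log2 fold changes were -0.70 ± 0.09 in lung and 0.42 ± 0.09 in blood (adjusted p = 0.000174 and 0.0305), and the difference was 1.16 ± 0.13 (adjusted p = 6.55e-06). Anxa3, a membrane-binding annexin of neutrophils and of alveolar epithelium, was at 343 to 406 CPM in the air lungs (median 383) and at 276 to 342 CPM in the silica lungs (median 321). In blood it was at only 9.17 to 11.8 CPM (median 10.5) and 13.3 to 16.1 CPM (median 14.1). It fell by 0.25 ± 0.06 in lung and rose by 0.45 ± 0.08 in blood, without overlap in either (adjusted p = 0.00712 and 0.0128).

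Hopx, a homeodomain protein that marks type 1 alveolar cells and is also made in lymphocytes, was at 518 to 618 CPM in the air lungs (median 538) and at 436 to 497 CPM in the silica lungs (median 446). Its blood values, 130 to 153 CPM under air (median 138) and 144 to 184 CPM under silica (median 172), overlapped. The changes were -0.28 ± 0.05 and 0.29 ± 0.06 (adjusted p = 0.000911 and 0.0325). Ctsf, a lysosomal cathepsin, was at 80.9 to 97.1 CPM and 67 to 78.4 CPM in the air and silica lungs and at 57.4 to 64.9 CPM and 70.2 to 83.5 CPM in the bloods. Tcn2, the transcobalamin that carries vitamin B12, was at 142 to 162 CPM and 122 to 141 CPM in the lungs and at 42.9 to 49 CPM and 55 to 66.8 CPM in the bloods. Neither gene's groups overlapped, and their tissue differences were 0.60 ± 0.07 and 0.58 ± 0.08 (adjusted p = 8.74e-06 and 3.58e-05).

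Arrdc3, an arrestin-like adaptor for receptor turnover, changed by -0.25 ± 0.05 in lung and 0.32 ± 0.07 in blood. Surf1, an assembly factor of cytochrome c oxidase, changed by -0.22 ± 0.05 and 0.23 ± 0.05. Antxr2, a receptor for collagen and laminin, changed by -0.14 ± 0.03 and 0.34 ± 0.08. Their lung groups were apart except for Arrdc3 and their blood groups except for Antxr2. Polr1a, the largest subunit of RNA polymerase I, was at 29.8 to 32.2 CPM and 33 to 35.8 CPM in the air and silica lungs, and at 17.2 to 20.8 CPM and 15.5 to 16.7 CPM in the bloods. It was the reverse case, at 0.16 ± 0.04 in lung and -0.25 ± 0.05 in blood (adjusted p = 0.00948 and 0.0338), with no overlap in either tissue.

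**Figure D3:**
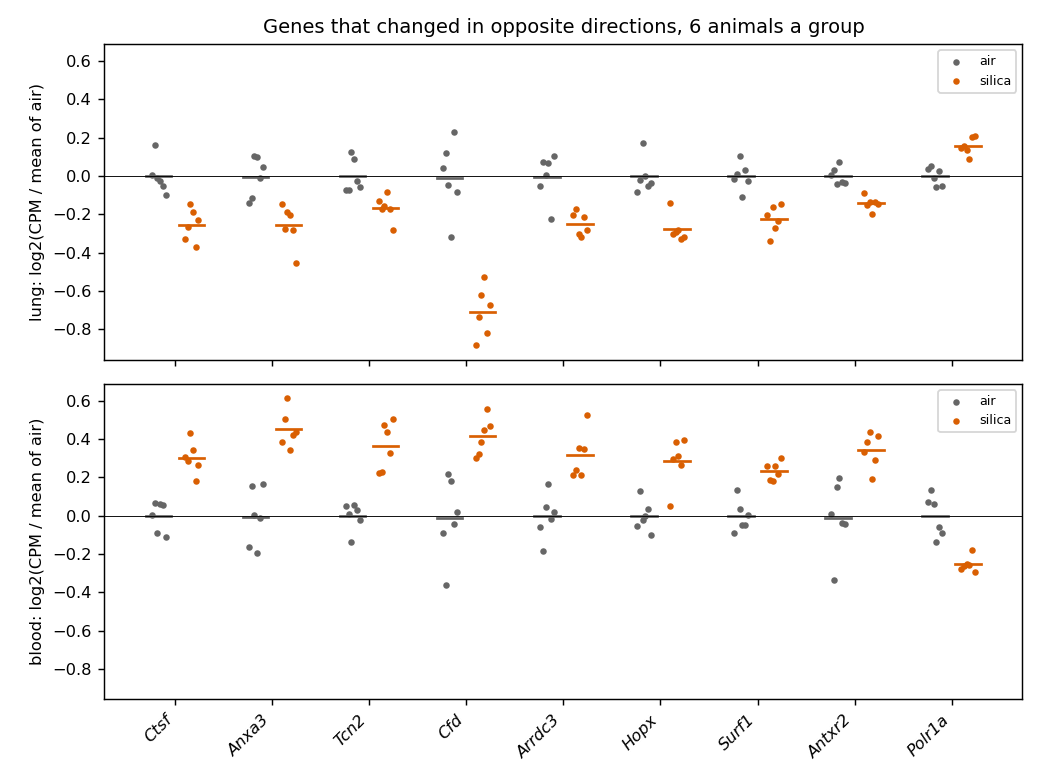
Points are libraries, as log2 of CPM over the mean of the air libraries of the tissue (lung above, blood below), with bars at group means. For 8 of the 9 genes silica lies below air in lung and above it in blood, and Polr1a is the reverse.

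Genes that changed in lung only were the largest class. Of the 239, 147 rose and 92 fell. Among the rises were complement C3, the mitochondrial superoxide dismutase Sod2, the RNase Zc3h12a, the folate enzyme Mthfd2, and 9 cell cycle and DNA replication genes. In 133 of the 147 the lung groups did not overlap, and in 4 the blood groups did not, against 7.60% and 2.35% of all members. The median changes were 0.52 in lung and -0.07 in blood, and 103 of the 147 had a negative sign in blood, against 4416 of all 8451 members. The class is defined by these tests, which favour separate lung groups and opposite signs, so these counts only describe it. By another test of the difference, between the separate tissue fits, the lung-only class held 409 genes. With a level of at least 20 CPM it held 129.

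C3 was at 307 to 487 CPM in the air lungs (median 367) and at 1010 to 1354 CPM in the silica lungs (median 1271). Its blood values were 72.1 to 110 CPM under air (median 89.5) and 82.7 to 114 CPM under silica (median 92.6). Silica lungs stood far above air lungs and the blood ranges lay on top of each other. C3 rose 3.22-fold in lung (adjusted p = 3.85e-07), its blood log2 change was 0.10 ± 0.11 (adjusted p = 0.763), and the difference was -1.55 ± 0.15 (adjusted p = 1.74e-06). Sod2, which detoxifies superoxide and is an NF-kB target, was at similar levels under air, 130 to 181 CPM in lung (median 153) and 124 to 162 CPM in blood (median 136). Under silica it was at 329 to 466 CPM in lung (median 413) and at 95.3 to 164 CPM in blood (median 148). It rose 2.65-fold in lung, and its blood change was 0.01 ± 0.11. Zc3h12a, which degrades inflammatory mRNAs, was at 15.6 to 22.2 CPM in the air lungs and 41.7 to 63.1 CPM in the silica lungs, and in blood at 19.6 to 23.7 CPM and 20.5 to 26.4 CPM. It rose 2.74-fold in lung (adjusted p = 1.4e-06), and its blood log2 change was 0.09 ± 0.07.

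Cd177, a surface protein of neutrophils, was the clearest departure from the other neutrophil genes. It was at 95.9 to 202 CPM in the air lungs (median 120) and at 409 to 605 CPM in the silica lungs (median 538). In blood it was at 6.66 to 12.7 CPM under air (median 8.73) and at 4.33 to 9.79 CPM under silica (median 6.02). So its level was higher in lung than in blood, unlike S100a8, S100a9 and Mmp8. It rose by 1.99 ± 0.17 in lung (adjusted p = 3.84e-06) and stood at -0.52 ± 0.22 in blood (adjusted p = 0.319), a difference of -2.47 ± 0.29 (adjusted p = 1.05e-05). Ncf1, a cytosolic subunit of the neutrophil NADPH oxidase, fell in lung by 0.43 ± 0.09 (adjusted p = 0.00455) and was at 0.17 ± 0.06 in blood (adjusted p = 0.236), with the difference past the threshold (adjusted p = 0.000883). Its lung values were 62.9 to 91.6 CPM under air and 47.7 to 59.9 CPM under silica, with no overlap.

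Of 14 members on the list of cell cycle and DNA replication genes, 13 rose in lung. The tissue difference passed for 9, so for the other 5 a difference between the tissues is not shown. In blood 0 changed by edgeR's test, 0 by DESeq2, and 0 at an unadjusted p below 0.05. Over all members 9.04% rose in lung and 1.61% changed in blood by edgeR's test, so its 0 of 14 in blood is near the overall share. The median change of the 14 was 0.57 in lung and -0.03 in blood. In blood, 6 of the 14 had a positive sign and 8 a negative sign. Mki67, the standard marker of cycling cells, was at 12.9 to 21.9 CPM in the air lungs (median 18.5) and at 40.5 to 54.4 CPM in the silica lungs (median 49.5). In blood it was at 7.05 to 15.9 CPM and at 9.85 to 13 CPM. Mcm5, a subunit of the replicative helicase, was at 5.03 to 8.62 CPM and 14.7 to 18.6 CPM in the lungs, and at 9.24 to 12.8 CPM and 6.97 to 10.8 CPM in the bloods. Tk1, the cytosolic thymidine kinase, was far higher in blood, at 242 to 379 CPM under air and 242 to 298 CPM under silica, than in lung, where it was at 5.63 to 7.13 CPM and 10.4 to 13.3 CPM. For all 3 the lung groups were apart and the blood groups overlapped, with lung rises of 2.61-fold, 2.35-fold and 1.99-fold.

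Mthfd2, which makes one-carbon units in mitochondria, was at 6.34 to 8.04 CPM and 12.1 to 14.4 CPM in the air and silica lungs. In the bloods it was at 44.5 to 55.3 CPM and 44.5 to 51.3 CPM. Slc7a5, a transporter of large neutral amino acids, rose by 1.15 ± 0.10 in lung and was at -0.16 ± 0.10 in blood, and Slc16a6, a monocarboxylate transporter family member, rose by 1.08 ± 0.08 and was at 0.05 ± 0.06. The lung groups of these 3 genes did not overlap and their blood groups did. Sema4a, a semaphorin of immune cells, rose from 122 to 143 CPM under air to 184 to 215 CPM under silica in lung, and was at 57.6 to 64.6 CPM and 59.4 to 66.2 CPM in blood. Ltb, lymphotoxin beta, stood between the classes. It was at 19.4 to 22.5 CPM and 41.3 to 54.9 CPM in the lungs and at 134 to 161 CPM and 161 to 182 CPM in the bloods. Its blood groups did not overlap, although the blood change of 0.21 ± 0.05 did not pass (adjusted p = 0.0792), and the difference of -0.90 ± 0.09 did (adjusted p = 1.74e-06).

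NF-kB genes differed among themselves. Of 18 members on that list, 6 rose in lung and for 3 the difference passed. In blood 0 changed by edgeR's test and 0 by DESeq2, and 1 at an unadjusted p below 0.05. Over all members 9.04% rose in lung and 1.61% changed in blood, so 0 on a list of 18 is near the overall share in blood. The list medians were 0.13 in lung and -0.00 in blood. Nfkbiz, an inducible nuclear cofactor of NF-kB, was at 16.3 to 24.3 CPM and 32.1 to 49.1 CPM in the air and silica lungs, and at 17.3 to 23.8 CPM and 18.6 to 21.1 CPM in the bloods. It rose by 0.87 ± 0.11 in lung and was at -0.00 ± 0.07 in blood, with a difference of -0.83 ± 0.14 (adjusted p = 0.0011). Its lung groups were apart at nearly the same air level as in blood.

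The promoters of 2 lung-only risers, Nfkbiz and C3, are shown with matches to GGGANNNNCC in capitals, from the same RefSeq table. Nfkbiz lies at chr11:58251471-58251770 on the plus strand, with 3 matches at -66, -51 and -13. C3 lies at chr9:2201290-2201589 on the minus strand, with 1 match at -69. It also holds a match to TTGNNNAA at -104, which is not in capitals.
Nfkbiz: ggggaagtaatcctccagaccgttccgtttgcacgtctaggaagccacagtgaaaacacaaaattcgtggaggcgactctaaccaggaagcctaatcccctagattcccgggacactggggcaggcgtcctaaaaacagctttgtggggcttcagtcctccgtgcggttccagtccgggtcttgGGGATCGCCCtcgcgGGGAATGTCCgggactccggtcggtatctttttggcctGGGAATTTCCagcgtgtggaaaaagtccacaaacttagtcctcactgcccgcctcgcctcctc
C3: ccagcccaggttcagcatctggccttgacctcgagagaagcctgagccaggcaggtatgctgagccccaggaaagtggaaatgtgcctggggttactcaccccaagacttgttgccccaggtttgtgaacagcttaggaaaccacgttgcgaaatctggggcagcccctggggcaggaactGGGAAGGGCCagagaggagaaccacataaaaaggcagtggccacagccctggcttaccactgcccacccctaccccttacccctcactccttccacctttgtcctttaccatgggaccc

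Among the 103 lung-only risers with a promoter, 27 (26.2%) held GGGANNNNCC and 27 (26.2%) held TTGNNNAA. Both shares were close to the 25.5% and 26.4% of all members. Of the 33 blood-only risers with a promoter, 15 (45.5%) held the first and 11 (33.3%) the second.

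Other lung-only rises belonged to several lists. Fdps and Lss, enzymes of sterol synthesis, rose by 0.53 ± 0.09 and 0.45 ± 0.06 in lung and were at -0.12 ± 0.06 and -0.17 ± 0.09 in blood. Of the 18 cholesterol and fatty acid genes, 9 rose and 2 fell in lung, and the medians were 0.38 in lung and 0.01 in blood. In blood 0 changed by edgeR's test, 1 by DESeq2 and 1 at an unadjusted p below 0.05. Over all members 9.04% rose and 5.08% fell in lung and 1.61% changed in blood, so 0 on a list of 18 is near the overall share in blood. Hk2, the inducible hexokinase, rose by 0.47 ± 0.07 in lung and was at 0.01 ± 0.05 in blood. Of the 18 glycolysis and transport genes, 9 rose in lung and 1, Slc16a3, in blood. Srxn1, which repairs oxidized peroxiredoxins, went from 7.51 to 9.23 CPM under air to 15.5 to 16.7 CPM under silica in lung, and was at 6.02 to 9.6 CPM and 6.66 to 8.83 CPM in blood. Nqo1, another NRF2 target, moved differently, falling by 0.24 ± 0.06 in lung (adjusted p = 0.0151) and standing at 0.25 ± 0.07 in blood (adjusted p = 0.0891). Its tissue difference of 0.53 ± 0.09 passed (adjusted p = 0.000599). As its blood effect was the larger in size, Nqo1 is not in the lung-only class. Hmox1, heme oxygenase, rose by 0.54 ± 0.10 in lung (adjusted p = 0.00178) and was at -0.21 ± 0.19 in blood, and its difference did not pass (adjusted p = 0.07).

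Leukocyte surface and signal genes were also in the lung-only class. Itgam and Itgax, the alpha chains of the integrins CD11b and CD11c, rose by 0.57 ± 0.08 and 0.55 ± 0.07 in lung and were at -0.07 ± 0.08 and -0.16 ± 0.09 in blood. The chemokine Ccl3 was at 12.4 to 18 CPM in the air lungs and 25.9 to 33.2 CPM in the silica lungs, and at 11.2 to 17.2 CPM and 11.2 to 20.8 CPM in the bloods. Its lung groups were apart and its blood groups overlapped. Tfrc, the transferrin receptor, rose by 0.60 ± 0.07 in lung and was at -0.20 ± 0.09 in blood, and the growth regulator Myc rose by 0.61 ± 0.05 and was at 0.06 ± 0.10. Tlr2, a receptor for bacterial lipoproteins, rose by 0.69 ± 0.07 in lung and was at 0.23 ± 0.07 in blood. Its difference of -0.41 ± 0.10 (adjusted p = 0.0186) did not pass with the replicate block (Tlr2, adjusted p = 0.0926).

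Lung-only falls were smaller, with a median of -0.19. Alox15, a lipoxygenase, was at 13.5 to 18.1 CPM in the air lungs (median 15.2) and at 6.15 to 7.94 CPM in the silica lungs (median 7.31). In blood it was at 6720 to 10760 CPM and at 6350 to 9668 CPM. The lung groups were apart and the blood groups overlapped, with changes of -1.11 ± 0.09 (adjusted p = 2.33e-06) and -0.20 ± 0.13 (adjusted p = 0.566). Of eosinophil genes, Epx, Prg2 and Il5ra were at no more than 0.1866, 1.23 and 1.34 CPM in any blood. Ccr3 was at 34.69 to 46.67 CPM there. The cell source of Alox15 was not tested in either tissue. Clec7a, the beta-glucan receptor dectin-1, was at 173 to 229 CPM and 105 to 159 CPM in the lungs and at 33.8 to 41.8 CPM and 35.9 to 51.3 CPM in the bloods. It fell by 0.59 ± 0.10 in lung and was at 0.22 ± 0.09 in blood. Tspan2, a tetraspanin, fell in lung by 0.39 ± 0.05 from 294 to 340 CPM to 222 to 265 CPM, and was at 0.28 ± 0.08 in blood. Lta4h, which makes leukotriene B4, fell by 0.30 ± 0.07, and its blood values, 42.1 to 46.2 CPM under air and 47 to 53.7 CPM under silica, did not overlap although the change of 0.15 ± 0.05 did not pass (adjusted p = 0.158).

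Further falls in lung were those of Ech1, a fatty acid oxidation enzyme, at -0.35 ± 0.04, Palm, a membrane-shape protein, at -0.27 ± 0.05, and the clock repressor Cry1 at -0.70 ± 0.11. Their blood changes were 0.04 ± 0.06, 0.20 ± 0.06 and -0.02 ± 0.11. Icam2 and Pecam1, adhesion molecules of endothelium and leukocytes, fell by 0.18 ± 0.03 and 0.19 ± 0.05 in lung and were at 0.14 ± 0.08 and 0.06 ± 0.07 in blood. The Pecam1 difference lay at the threshold (adjusted p = 0.0499) and did not pass with the replicate block (Pecam1, adjusted p = 0.0648). It was lost in 10 of 14 alternatives and in 31 of 36 fits without a library or an animal. Of 10 endothelial genes tested in lung, Pecam1 among them, 6 fell, and of 15 epithelial genes, Hopx among them, 5 fell and 2 rose, against 5.72% falling over all genes tested. Their part in the lung falls named here was not tested. Cdh5 and Cldn5, which mark endothelium, were at no more than 0.4964 and 0.1033 CPM in any blood. Others of the 10 endothelial genes were found there, with Vwf at 67.88 to 138.2 CPM and Pecam1 at 45.73 to 64.74 CPM. The 10 summed to 129.7 to 215.1 CPM in the bloods and to 4103 to 4944 CPM in the lungs. Rfxap, a factor for MHC class II genes, stands on 2 lines of the tables. One was at 9.99 to 18.8 CPM in the air lungs and at 0 in all 6 silica lungs, and the other was at 2.42 to 11.1 CPM and 20.3 to 22.4 CPM. Summed, they were at 19.2 to 25.1 CPM and 20.3 to 22.4 CPM, so no change of the gene is reported.

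Genes that changed in blood only numbered 54, of which 49 rose and 5 fell. Effects were small, with a median rise of 0.35. In 42 of the 49 rises the blood groups did not overlap, against 2.35% of all members, and the rule for the class favours this. The count was 30, 28, 31 or 32 without the blood of air animal 37, 38, 41 or 42, and 30, 30 or 27 without that of silica animal 45, 46 or 48. It rose to 64 without the blood of silica animal 43.

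Ccl6, a CC chemokine of myeloid cells, was at 87.7 to 122 CPM in the air bloods (median 99.3) and at 132 to 158 CPM in the silica bloods (median 142). In lung it was at 180 to 237 CPM (median 195) and 169 to 219 CPM (median 198). The blood groups were apart and the lung groups overlapped. It rose by 0.51 ± 0.08 in blood (adjusted p = 0.00737), was at -0.05 ± 0.08 in lung, and its difference was 0.61 ± 0.11 (adjusted p = 0.00233). Marcks, an actin-linked substrate of protein kinase C, was at 51.4 to 61.7 CPM and 69.5 to 94.3 CPM in the bloods and at 166 to 192 CPM and 141 to 169 CPM in the lungs. It rose by 0.45 ± 0.07 in blood (adjusted p = 0.0089) and was at -0.15 ± 0.05 in lung (adjusted p = 0.0609). Upp1, uridine phosphorylase, was at 18.5 to 23.5 CPM and 25.9 to 30.8 CPM in the bloods and at 69.3 to 73.5 CPM and 62.1 to 70.2 CPM in the lungs. Marcks and Upp1 were alike in having separate blood groups and overlapping lung groups.

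Mettl9, a histidine methyltransferase, had the smallest p of the class. It went from 28.3 to 32.7 CPM to 36.1 to 45 CPM in blood, and was at 69.3 to 82.1 CPM and 69.7 to 78.4 CPM in lung. Gmfg, an actin regulator of blood cells, rose by 0.26 ± 0.05 in blood, and Mtus1, a microtubule-associated protein, by 0.43 ± 0.06. Sema3g, a secreted semaphorin, was high in lung, at 444 to 508 CPM under air and 407 to 490 CPM under silica, and low in blood, where it went from 11.4 to 15.5 CPM to 16.1 to 20.6 CPM. Tk2, the mitochondrial thymidine kinase, and Aldh3b1, an aldehyde dehydrogenase, rose in blood by 0.35 ± 0.07 and 0.34 ± 0.07. For these 6 genes the blood groups did not overlap and the lung groups did.

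Sgk1, a kinase induced by glucocorticoids, was at 32.6 to 47.5 CPM in the air bloods (median 35.8) and at 44.6 to 50.6 CPM in the silica bloods (median 46.5). The highest air value, that of animal 40, lay within the silica range. It rose by 0.34 ± 0.08 in blood (adjusted p = 0.0473) and was at -0.11 ± 0.06 in lung. Of the 9 members on the list of glucocorticoid-induced genes, 3 rose in blood. In lung 0 changed by edgeR's test, 1 by DESeq2 and 3 at an unadjusted p below 0.05. Over all members 14.1% changed in lung by edgeR's test. Fkbp5 and Tsc22d3, also induced by glucocorticoids, did not pass in either tissue. The part of these hormones in any change was not tested. Fkbp5 was at 0.27 ± 0.28 in lung and 0.18 ± 0.20 in blood, with air animal 40 at 133.3 CPM in lung and 61.55 CPM in blood, the highest value of each tissue. Tsc22d3 was at -0.56 ± 0.18 in lung (adjusted p = 0.052) and -0.07 ± 0.13 in blood.

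The named falls in blood were those of Abcc1, a multidrug and leukotriene exporter, Ankrd52, a phosphatase subunit, Adck5, a kinase-like protein of mitochondria, and Madd, an activator of Rab GTPases. Abcc1 was at 18.2 to 21.2 CPM and 11.5 to 16.9 CPM in the air and silica bloods and at 35 to 51 CPM and 50.6 to 58.2 CPM in the lungs. It fell by 0.36 ± 0.08 in blood (adjusted p = 0.0479), with no overlap. Ankrd52 fell by 0.42 ± 0.08, Adck5 by 0.40 ± 0.09 and Madd by 0.28 ± 0.06. The tissue differences of these 3 did not pass with the replicate block (Ankrd52, adjusted p = 0.0648; Adck5, adjusted p = 0.0625; Madd, adjusted p = 0.0813).

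**Figure D4:**
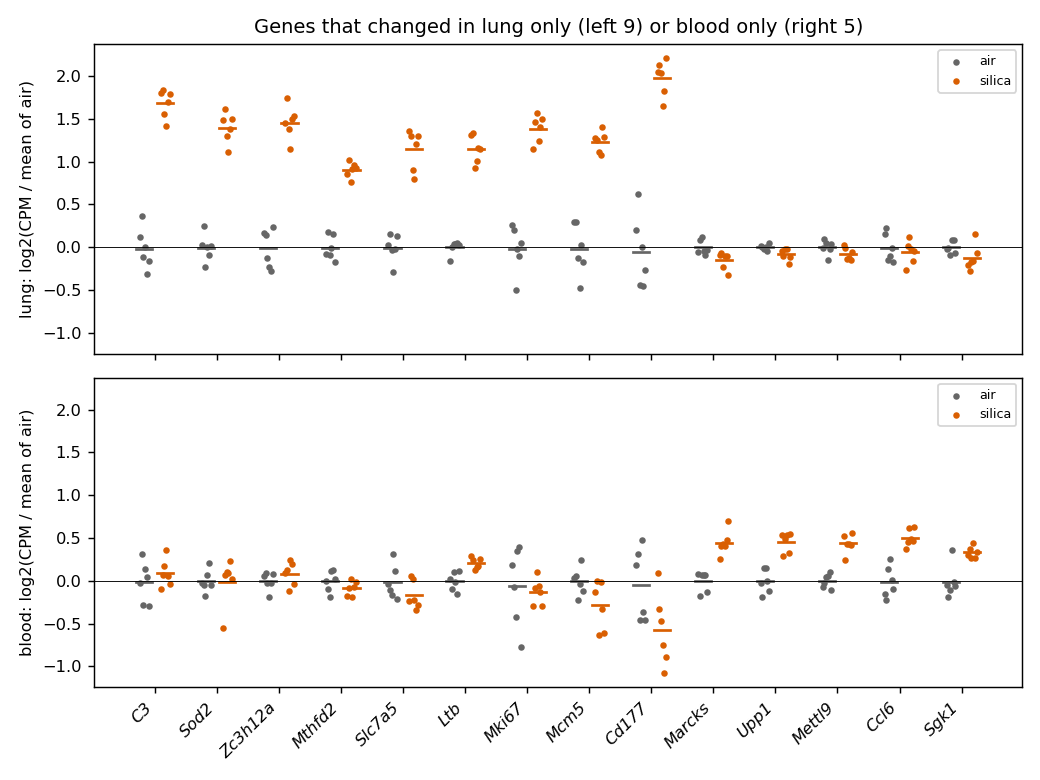
Points are libraries, as log2 of CPM over the mean of the air libraries of the tissue (lung above, blood below), with bars at group means. The 9 genes at the left leave the air level in lung, with Ltb the only one of them whose blood groups are apart, and the 5 at the right leave it in blood.

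By edgeR's test 0 genes fell in both tissues, with 51 at an unadjusted p below 0.05 in both, and DESeq2 called 3. Without the blood of air animal 42 edgeR called 1. The 5 with negative signs in both and the smallest larger unadjusted p were Fam53b, Gpx1, Smtn, Acsl1 and Zscan21. Gpx1, glutathione peroxidase, which is abundant in red cells, fell by 0.23 ± 0.06 in lung (adjusted p = 0.0223) and was at -0.42 ± 0.12 in blood (adjusted p = 0.0983). Its blood values were 4233 to 7572 CPM under air and 3868 to 4675 CPM under silica. Smtn, smoothelin, was the only one of the 5 whose groups did not overlap in either tissue, at 44 to 53 CPM and 39.7 to 43.5 CPM in lung and 7.5 to 10.9 CPM and 5.54 to 7.37 CPM in blood. The blood changes of Fam53b, Acsl1 and Zscan21 were -0.25 ± 0.07, -0.33 ± 0.10 and -0.21 ± 0.07, and none passed.

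Of 29 interferon-stimulated genes, 4 rose in lung and 1 in blood by edgeR's test, and the medians were 0.11 and 0.12, with 24 positive signs in each tissue. DESeq2 called 8 in lung and 6 in blood, and 10 and 8 had an unadjusted p below 0.05. Isg15, a ubiquitin-like interferon product, was at 0.28 ± 0.07 in lung (adjusted p = 0.02) and 0.48 ± 0.13 in blood (adjusted p = 0.0975), and its groups overlapped in both. The MHC class II list held 12 members, with 5 rises and 1 fall in lung. The fall was that of the split Rfxap line. Cd74, the invariant chain, rose by 0.17 ± 0.05 in lung and was at 0.01 ± 0.11 in blood. Of 15 T cell genes 1 fell in lung, and Cd3e was at -0.10 ± 0.13 and 0.02 ± 0.07. Of 13 NK and cytotoxic genes 1 fell in lung, all 13 had negative signs there, and the medians were -0.27 in lung and -0.05 in blood. Of 11 monocyte genes 3 rose and 2 fell in lung. In blood 0 genes of the MHC class II, T cell and NK lists changed by edgeR's test, by DESeq2 or at an unadjusted p below 0.05. Of the monocyte list 0 changed in blood by either tool and 1 at that unadjusted p. With 1.61% of all members changed in blood, a count of 0 on lists this short is near the overall share. In lung 9.04% of all members rose and 5.08% fell.

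Red cell and platelet genes had negative medians in both tissues. Of 8 red cell members, 5 fell and 1 rose in lung, the rise being that of Tfrc, with medians of -0.31 and -0.20. Alas2, the first enzyme of heme synthesis in red cells, fell by 0.44 ± 0.11 in lung (adjusted p = 0.0151) and was at -0.22 ± 0.11 in blood. Its blood values were 21940 to 33600 CPM under air and 19120 to 23690 CPM under silica, and the groups overlapped in both tissues. Of 6 platelet genes 2 fell in lung, with medians of -0.25 and -0.19, and Pf4, platelet factor 4, was at -0.02 ± 0.10 and -0.05 ± 0.16. In blood 0 genes of either list changed by edgeR's test or DESeq2, and 3 and 1 did at an unadjusted p below 0.05. Over all members 5.08% fell in lung and 1.61% changed in blood, so a count of 0 on these short lists is near the overall share in blood.

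Of 15 Toll-like receptors and adaptors 6 rose in lung, with medians of 0.16 in lung and 0.09 in blood. Of 13 clock genes 4 rose and 3 fell in lung, and of 13 heat shock, unfolded protein and ATF4 genes 5 rose. Of 17 NRF2 and oxidative stress genes 6 rose and 4 fell in lung. On these 4 lists 0 changed in blood by edgeR's test, 2, 0, 0 and 1 by DESeq2, and 5, 6, 4 and 3 at an unadjusted p below 0.05. Of 14 immediate-early genes 2 rose in lung and 1 in blood, and of 14 adhesion genes 4 rose and 2 fell in lung and 1 rose and 1 fell in blood. Of 18 lysosomal genes 4 rose and 1 fell in lung and 1 rose in blood. Of 19 subunits of oxidative phosphorylation 1 rose in lung, and both medians, 0.00 and -0.01, were those of all members. Of 6 tissue macrophage genes 3 rose and 2 fell in lung and 1 rose in blood, and of 8 B cell genes 1 rose in lung. The 6 chemokine ligands held 3 rises in lung and 1 in blood. Of 7 chemokine receptors 4 rose and 1 fell in lung and 1 rose in blood. Of 9 complement genes 1 rose and 1 fell in lung and 2 rose in blood. Over all members 9.04% rose and 5.08% fell in lung, and 1.61% changed in blood. The lung rises on the immediate-early, oxidative phosphorylation, B cell and complement lists are near or below that overall share.

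**Figure D5:**
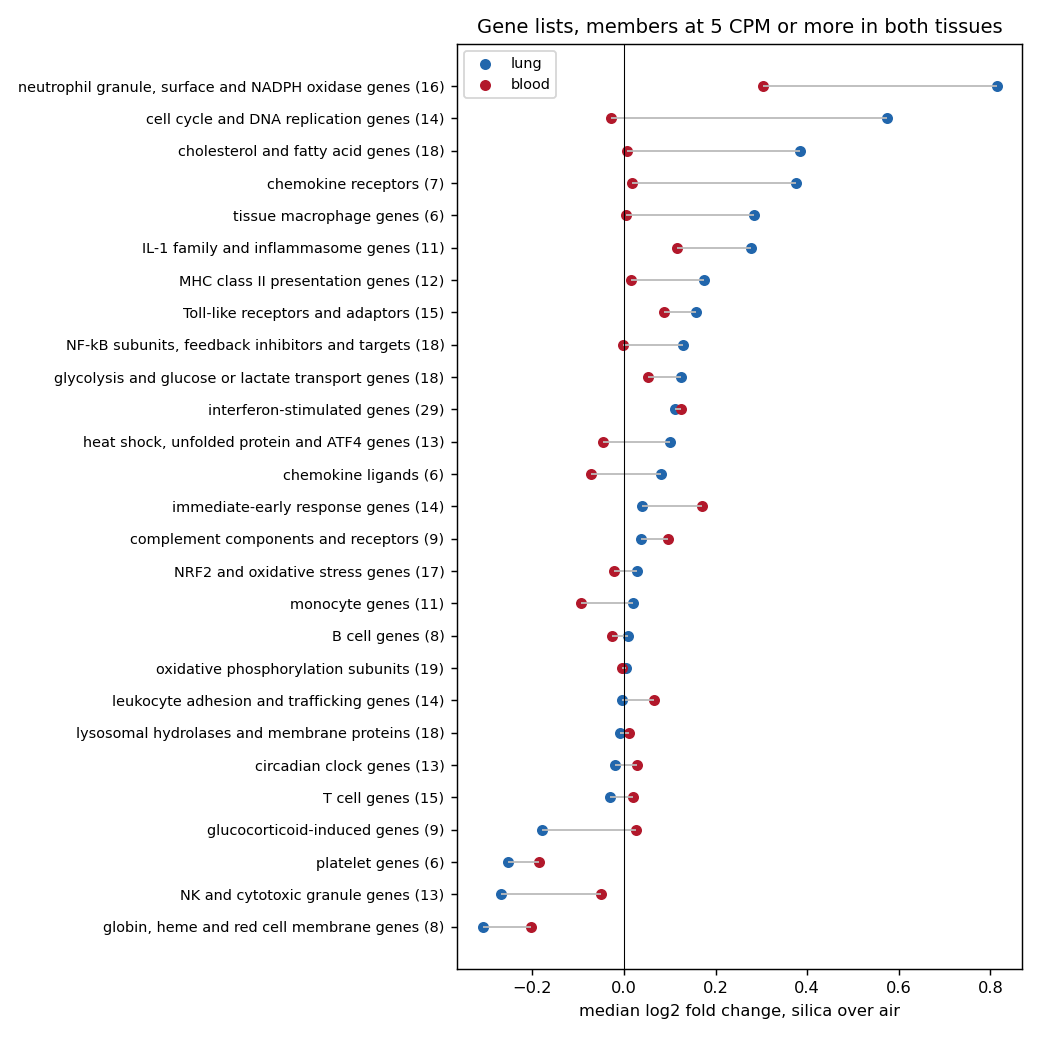
Median log2 fold change of silica over air in lung and in blood for the 27 lists with at least 5 members (member count in parentheses; a line joins the tissues). Neutrophil genes have the highest median in both tissues, 0.81 and 0.30, and cell cycle genes have 0.57 in lung and -0.03 in blood.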

How the data were processed

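Lung and whole blood libraries taken 1 day after exposure were used, and those from 6 months were left out. Per the labels' protocols, the tissues' RNA was isolated with different kits, globin mRNA was depleted (whether in lung RNA as well as blood RNA is not clear), and libraries were stranded and poly(A)-selected. The genome build in the submitters' processing notes is Rnor_6.0. The tools listed there, whose order and role are not given, are Salmon 1.10.1 and STAR 2.6.1d, then Trim Galore 0.6.7 and cutadapt 3.4, and bcl2fastq 2.19. The deposited tables hold estimated counts per gene made by the authors, not normalized, and these expected counts were rounded here. Reads of similar genes are split by estimation, so values of gene families (Ifit, Lilr, Siglec, MHC) and of the 266 names on more than 1 line are uncertain. Columns left without a sample numbered 0.

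Tests used edgeR (4.0.16, R 4.3.3): quasi-likelihood fits with TMM factors, filterByExpr at a minimum of 10 counts, and Benjamini-Hochberg adjustment over all genes tested at a threshold of 0.05. They were run within each tissue and, for the tissue difference, in 1 fit of 4 groups. An SE is the absolute log2 change divided by the root of F. Printed CPM are counts over TMM-scaled library sizes within a tissue, not per length, so levels are compared for 1 gene at a time. The labels give no chambers, so chamber and treatment cannot be told apart. Titles carry the same animal numbers in both tissues, taken here as the same animals, though the labels do not say so. With group means removed, same-numbered libraries had correlations from -0.0774 to 0.166, and 5 of 12 were above 0.1. Among the bloods of the same treatment, the one with the lung's own number correlated best for 8 of 12. The main fit of the difference had no term for the animal, and the replicate block is the alternative. Replicates of a group differed beyond sampling noise (chi-square per degree of freedom 4.55 to 35.3). Floors cover counting error only.

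The members and lists were chosen with earlier results of these data known. Named genes followed a rule: up to 10 shared changes in each direction and up to 10 opposite ones by the larger adjusted p, 8 rises and 8 falls of each one-tissue class by the p of the difference, up to 2 members of each of 33 lists, and a short set always named. Of that set Lcn2, Cxcl2 and Ms4a1 did not reach the level. A few genes picked by this rule are left unreported. Scripts were tested on simulated data. Alternatives were DESeq2 1.42.0, limma-voom (limma 3.58.1), other scalings, filters, levels and thresholds, a 1.5-fold test, a replicate block, and leaving out libraries or animals. Robust dispersion and the threshold of 0.10 were chosen after seeing the data. Promoters came from RefSeq (GRCr8), used for sequences and their positions in that build only.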

Additional observations from a re-analysis of the deposited data

Results flagged for a closer look

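Of 348 groups of 6 libraries (87 named genes in 4 groups), 25 (7.18%) held a library whose gap to its nearest neighbour was over 0.625 of the group's range; chance gives about 1 in 20. In blood, air animal 40 stood apart for Mmp8 at 122 CPM, Sgk1 at 47.5 CPM, Isg15 at 92.9 CPM, Cd74 at 1100 CPM, Alas2 at 33600 CPM and Fkbp5 at 61.5 CPM. In blood, silica animal 43 stood apart for Sod2 at 95.3 CPM, Fdps at 61.6 CPM and Itgax at 149 CPM. In blood, silica animal 45 stood apart for Alox15 at 9668 CPM. In blood, silica animal 47 stood apart for Polr1a at 16.7 CPM. In lung, air animal 37 stood apart for Ltb at 19.4 CPM. In lung, air animal 38 stood apart for Dgat2 at 42.7 CPM and Tk1 at 7.13 CPM. In lung, air animal 39 stood apart for Icam2 at 160 CPM, Aldh3b1 at 21.6 CPM, Abcc1 at 35 CPM and Hopx at 618 CPM. In lung, air animal 40 stood apart for Fkbp5 at 133 CPM and Fam53b at 99.1 CPM. In lung, silica animal 43 stood apart for Ncf1 at 47.7 CPM and Hopx at 497 CPM. In lung, silica animal 44 stood apart for Palm at 47.6 CPM. In lung, silica animal 45 stood apart for Fam53b at 88.1 CPM. In lung, silica animal 46 stood apart for Ccl3 at 25.9 CPM. Air animal 40 also had the lowest normalization factor of the bloods, 0.8143. No cause of these values was tested.

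For 64 of the 87 named genes the silica effect itself differed between the tissues in the joint edgeR fit (adjusted p below 0.05), given as the log2 effect in blood minus that in lung. Many were named by this test, so the count is no result; over all members 5.62% passed. Lower in blood were Cd177 (-2.47), Il1r2 (-1.73), C3 (-1.55), Mki67 (-1.45), Mcm5 (-1.45), Sod2 (-1.35), Zc3h12a (-1.32), Slc7a5 (-1.26), Tk1 (-1.11), Chi3l1 (-1.09), S100a9 (-1.06) and Slc16a6 (-0.98). These were followed by Mthfd2 (-0.95), Ltb (-0.90), Ccl3 (-0.89), Srxn1 (-0.86), Nfkbiz (-0.83), Tfrc (-0.75), Itgax (-0.66), Fdps (-0.60), Itgam (-0.59), Lss (-0.58), Sema4a (-0.58) and Ankrd52 (-0.56). Further down were Abcc1 (-0.55), Hp (-0.54), Myc (-0.50), Adck5 (-0.42), Hk2 (-0.42), Tlr2 (-0.41), Slc16a3 (-0.40), Polr1a (-0.37) and Madd (-0.32). Higher in blood were Rfxap (10.62), Cfd (1.16), Alox15 (0.95), Clec7a (0.86), Anxa3 (0.75), Cry1 (0.73), Tspan2 (0.71), Marcks (0.64), Ncf1 (0.63), Arrdc3 (0.61), Hopx (0.61) and Ccl6 (0.61). The next were Ctsf (0.60), Aldh3b1 (0.59), Upp1 (0.58), Sema3g (0.58), Tcn2 (0.58), Mettl9 (0.56), Nqo1 (0.53), Antxr2 (0.53), Palm (0.52), Mtus1 (0.51) and Surf1 (0.50). The last were Lta4h (0.50), Sgk1 (0.49), Tk2 (0.47), Ech1 (0.44), Gmfg (0.42), Mcemp1 (0.38), Icam2 (0.36) and Pecam1 (0.30). The Rfxap value belongs to 1 of its 2 lines in the tables.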

How the results depend on the processing

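Counts below are in the order tissue difference, lung, blood, shared, opposite, lung only and blood only. With limma-voom, RLE or upper-quartile factors, TMM within each tissue, a minimum count of 50, no count filter, globin and mitochondrial genes left out, a level of 1 CPM, summed gene models and robust dispersion each count that was recomputed stayed within 1.5 times. The level of 1 CPM was run for the classes only, and TMM within each tissue for the difference and the classes. The balance of higher and lower tissue differences turned with some scalings and single blood libraries, with values given above. A test against a 1.5-fold change gave 13, 39, 0, 0, 0, 12 and 0, with 7 members at an unadjusted p below 0.05 in blood and 76 in lung by edgeR's glmTreat. A threshold of 0.01 gave 195, 587, 23, 5, 0, 102 and 12. A threshold of 0.10 gave 781 for the difference, 266 in blood, 81 shared, 26 opposite, 369 lung only and 107 blood only. DESeq2 gave 305 in blood, 85 shared, 22 opposite and 105 blood only, and its shared genes held all 42. The difference of the separate tissue fits gave 850 and 409 lung only. A level of 20 CPM gave 5 opposite and 129 lung only. With the replicate block 326 tissue differences passed and the classes held 42, 9, 179 and 48. The cause of these changes was not tested beyond what each setting does. Without 1 library in turn the ranges were 369 to 492, 926 to 1143, 69 to 180, 23 to 58, 3 to 12, 190 to 253 and 27 to 64. Without both libraries of 1 animal they were 305 to 492, 926 to 1143, 69 to 180, 23 to 54, 3 to 11, 172 to 243 and 27 to 60. Of the named genes past the threshold, 7 of 64 tissue differences (Adck5, Madd, Mcemp1, Pecam1, S100a9, Slc16a3 and Tlr2), 6 of 69 lung effects (Acsl1, Cd74, Fam53b, Gpx1, Smtn and Zscan21) and 17 of 38 blood effects were lost without some library or animal. The blood effects were those of Abcc1, Adck5, Aldh3b1, Ankrd52, Antxr2, Arrdc3, Cfd, Cxcr2, Hopx, Il1b, Il1rn, Madd, Nlrp3, Polr1a, Sema3g, Sgk1 and Surf1. No gene named here changed the sign of its tissue difference past the threshold in any setting. Depth limits genes near 5 CPM most, and blood effects below about 1.5-fold rest on 6 animals a group.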
